A study of Oryza sativa with 4 samples.

Results

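The leaves of rice plants in which OsABA8ox3 was silenced were followed from 0 h to 2 h of a 20% polyethylene glycol (PEG) treatment, an osmotic stress that holds water back from the roots in place of drought. The comparison rested on 2 of the 4 arrays of the study: OsABA8ox3 RNAi leaves sampled at 0 h, and OsABA8ox3 RNAi leaves sampled after 2 h in 20% PEG. The other 2 arrays held wild type (WT) leaves at 0 h and after 2 h in 20% PEG, and their values are given beside those of the RNAi leaves. All plants were of the cultivar Zhonghua 11 (ZH11) at the four-leaf stage, and RNA was hybridised to the Affymetrix Rice Genome Array. The RNAi leaves came from 1 transgenic line, RNAi-9, which carried a hairpin of OsABA8ox3 as a single insertion and was selected on hygromycin. The methods describe the WT as ZH11 carrying the empty pYL vector. Each condition had 1 array, so no replicate error could be computed and no test was made. The PEG arrays were also 2 h later than the 0 h arrays, with no untreated 2 h array, so PEG, time of day and handling cannot be told apart.

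Abscisic acid (ABA) is the hormone with which plants answer water shortage. It is cut from carotenoids by 9-cis-epoxycarotenoid dioxygenases and is inactivated by ABA hydroxylases of the CYP707A family, to which OsABA8ox3 belongs. ABA bound to its receptors blocks clade A protein phosphatases 2C, which frees SnRK2 kinases to phosphorylate basic leucine zipper (bZIP) factors, and these turn on genes of late embryogenesis abundant (LEA) proteins and other protective proteins.

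Signals are given on the log2 scale of the array software, with every signal under 6 raised to 6, and a change is the value at 2 h minus the value at 0 h. A gene was called higher or lower where it changed over 2-fold, that is by over 1 on the log2 scale. Where several probe sets measured 1 gene their mean is given. No probe set was paired with OsABA8ox3, so the silenced gene itself was not checked. The leaf label was checked against marker genes. The light-harvesting gene CAB2R was at 15.48 and the Rubisco small subunit gene OsrbcS at 11.98 in RNAi leaves at 0 h, while RBCS1, another small subunit gene, was at the floor on all 4 arrays. Of the 5 leaf markers 0 changed over 2-fold. Of 7 seed markers, 4 were at the floor on both RNAi arrays, and GLB and GLUA-2 were at 10.73 and 8.27 at 0 h. At the floor on both RNAi arrays were also the only anther marker and 5 of 7 markers of dividing cells. Of 4 root markers 2 were at the floor, and the other two were over 2-fold lower at 2 h: the silicon channel gene Lsi1 (10.17 to 8.51) and the iron transporter gene IRT1 (7.48 to the floor), with a median change of -0.74 over the 4 markers. The part of root markers in the falls of transport genes given further on was not tested. In whole leaves, fewer cells of a type and less RNA per cell cannot be told apart. All 9 bacterial and phage hybridization controls, which are spiked in equal amounts, read higher on the RNAi 2 h array than on the RNAi 0 h array, by 0.13 to 0.44.

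At 2 h of PEG, 2899 of 57258 probe sets were over 2-fold higher in RNAi leaves (5.06%) and 3250 were over 2-fold lower (5.68%). The balance depended on scaling. With arrays scaled to the hybridization controls 2038 were higher and 5887 lower, and with arrays scaled to the median of bright probe sets 3405 were higher and 2380 lower. The rises were larger than the falls. Past 4-fold there were 946 rises and 310 falls, past 16-fold 146 rises and 8 falls, and past 64-fold 22 rises and 0 falls. In WT leaves 1100 probe sets rose and 297 fell past 4-fold, and 13 rose and 0 fell past 64-fold. The probe sets that were higher had a median signal of 7.81 at 0 h and 9.94 at 2 h, and 564 of them (19.5%) had been under 6 at 0 h. Those that were lower had started from a median of 9.20 and ended at 7.79, and 387 (11.9%) ended under 6. A probe set near the floor at 0 h could be called higher but not lower, so the difference in starting level was partly set by the rule. Among the 405 probe sets brighter than 14 at 0 h, 0 were called higher and 25 lower. The highest signal on the RNAi 2 h array was 15.63, which left such probe sets little room to rise.

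**Figure D1:**
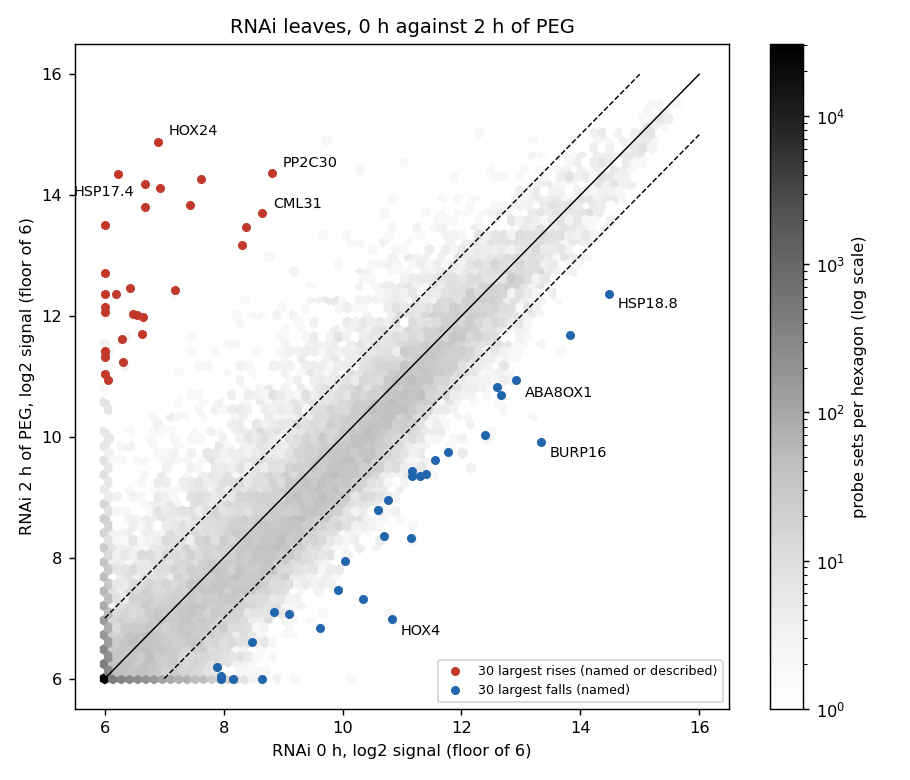
Log2 signal of each rice probe set in RNAi leaves at 0 h (horizontal axis) and at 2 h of PEG (vertical axis), with signals under 6 set to 6; grey hexagons count probe sets on a log scale, the solid line marks no change and the dashed lines 2-fold. Red points are the 30 largest rises among named or described genes, which reach 8.13. Blue points are the 30 largest falls among named genes only, which reach -3.84, so the 2 sets were drawn differently. Over all probe sets the largest rise was 8.46 and the largest fall -5.70.

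Counted by gene, 1673 of 17905 genes were higher (9.34%) and 1664 lower (9.29%), and the median change of all genes was -0.01. In WT leaves 1797 genes were higher (10.0%) and 1696 lower (9.47%). Of the 2457 genes that carry a name in the annotation, 298 were higher (12.1%) and 180 lower (7.33%) in RNAi leaves. These last shares are the background for the gene groups that follow, which together held 1087 named genes, 171 of them higher and 81 lower. Of the 2457 named genes 2103 reached 6 on 1 or both RNAi arrays, and of the 1087 genes 896 did. The others could not be called and are counted as within 2-fold. Fewer reached 6 among the endoglucanases, laccases and xyloglucan endotransglucosylases (8 of 21), expansins (17 of 29) and homeobox factors (30 of 47). The LEA proteins, small heat shock proteins, SnRK2 kinases and large chaperones had the highest shares of members called higher. Among groups of 5 or more, the share called lower was highest for ethylene genes, sugar transporters and expansins.

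**Figure D2:**
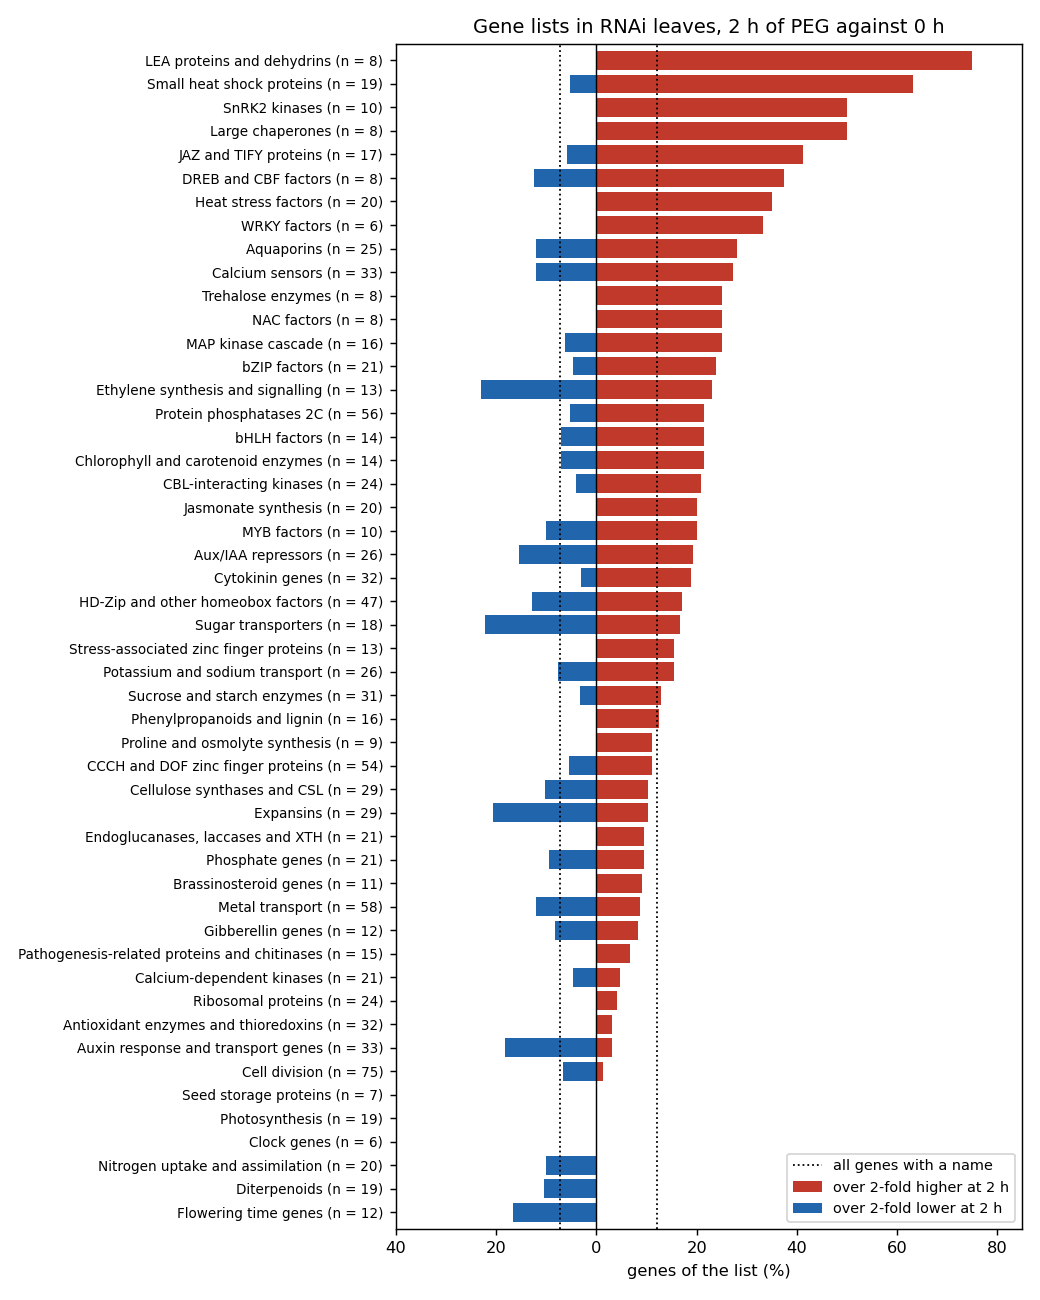
Percent of the genes of each group with 5 or more members that were over 2-fold higher (red, to the right) or over 2-fold lower (blue, to the left) in RNAi leaves at 2 h of PEG than at 0 h. Dotted lines mark the shares over all named genes, 12.1% higher and 7.33% lower.

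ABA synthesis genes did not all change. PSY3, a phytoene synthase that feeds the carotenoid pathway, went from 9.21 to 13.07, a change of 3.86, beside 3.74 in WT. The locus Os07g05940, described as 9-cis-epoxycarotenoid dioxygenase 1, went from 6.68 to 14.19 in RNAi leaves, a 182-fold difference, and from 7.05 to 13.47 in WT. It is described only in the study's annotation of genes higher in both genotypes, which fixed its direction. MHZ4, which acts early in the ABA branch of the carotenoid pathway in rice, went from 6.94 to 10.16. The group named for ABA synthesis and breakdown held only 3 genes, of which 1 was higher and 1 lower (median change 0.66). Its zeaxanthin epoxidase gene ABA1 was already at 12.20 at 0 h and reached 12.87. The CYP707A genes that the array measured moved apart. ABA8OX1 was at 12.91 at 0 h and 10.94 at 2 h, a change of -1.98, and in WT it went from 11.83 to 11.05, so that the genotypes were close at 2 h and RNAi leaves were the higher at 0 h. ABA8OX2 went from 7.75 to 9.07.

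Among 56 protein phosphatases 2C, 12 were higher and 3 lower, with a median change of 0.03. With arrays scaled to the controls 11 were higher and 6 lower, and scaled to bright probe sets 14 and 1. Besides PP2C68 and PP2C30, PP2C08 went from 6.62 to 11.70, PP2C59 from 6.82 to 11.29 and PP2C09 from 9.46 to 13.79. ABIL1, the rice ABI1-like phosphatase PP2C06, went from 9.92 to 13.78. PP2C12 was bright at 0 h and fell from 12.67 to 10.69, while PP2C28 (13.00 to 11.89) and PP2C21 (9.25 to 8.15) fell by little more than 2-fold. Of 10 SnRK2 kinases 5 were higher and 0 lower (median change 1.22). SAPK9 went from 7.10 to 10.35, SAPK7 from 7.07 to 9.76 and SAPK2 from 12.29 to 14.28. The other SnRK2 genes called higher were SAPK4 (1.64) and SAPK6 (1.53). SAPK8, the most abundant of the rest at 0 h, was at 11.97 and 11.69, and SAPK10 was at 7.46 and 8.37, so these stayed within 2-fold. Of 21 bZIP factors 5 were higher and 1 lower, or 3 and 3 with arrays scaled to the controls. BZIP23, which binds ABA response elements, went from 11.47 to 14.60, and TRAB1, another ABA response element binding factor of rice, from 10.46 to 12.45. MODD, which in rice promotes the removal of BZIP46 and so restrains ABA signalling, also rose, from 9.98 to 11.61.

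The LEA proteins and dehydrins, hydrophilic proteins that protect membranes and other proteins in drying cells, had the highest share of rises. Of 8 named members 6 were higher and 0 lower, with a median change of 4.26, against 7 higher and a median of 3.02 in WT. EM, an LEA protein of the seed, went from 6.31 to 11.23 in RNAi leaves and from the floor to 9.53 in WT. LEA3 (LEA19) went from 9.35 to 13.37 in RNAi leaves and from 10.30 to 12.30 in WT. RAB21 went from 8.31 to 13.18 and rab25 from 6.68 to 11.18. RAB16D reached only 7.0 from the floor of 6 and lay just inside the 2-fold bound, and Dhn1 went from 8.10 to 9.02. RAB16C, RAB16B and RAB21 are neighbours on the chromosome and changed by 2.97, 6.70 and 4.87.

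Further LEA genes are named only in the annotation that the study gave to genes higher in both genotypes, so their direction was fixed by that choice and their sizes are a description. The locus Os03g20680, LEA protein 1, had the largest rise of any named or described gene, from 6.23 to 14.36 in RNAi leaves, which is 280.3-fold. The same probe set was under 6 at 0 h and at 13.25 at 2 h in WT. LEA group 3 Os01g50910 went from under 6 to 13.51, and the group 1 genes Os08g23870, Os04g49980 and Os06g02040 reached 11.40, 10.06 and 9.47. Larger by a little than all of these was Os07g33280, an expressed protein of unstated function, which went from under 6 to 14.46 in RNAi leaves (8.46) and from 6.39 to 14.42 in WT. Another expressed protein, Os12g05210, reached 13.75 from under 6, beside 12.04 in WT.

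Described genes outside these families were also among the 30 largest rises. An MYB factor, Os05g37060, went from 6.93 to 14.12, and the C2H2 zinc finger protein ZOS3-21 (Os03g60560) from under 6 to 12.07. The beta-amylase Os10g32810, an enzyme that releases maltose from starch, went from 6.48 to 12.03. Their changes in RNAi leaves were 7.19, 6.07 and 5.55, beside 7.11, 5.34 and 5.37 in WT. Other genes differed more between the genotypes. The descriptions were drawn in part from the study's list of genes that rose more in RNAi-9 than in WT. For loci on that list, the larger change in RNAi leaves was fixed by that choice. The early nodulin 93 gene Os06g04990 went from under 6 to 12.36 in RNAi leaves and to 9.45 in WT, and the loci numbered next to it, Os06g05000 and Os06g05010, are described as early nodulin 93 as well. Os06g05000 changed by 2.82, and a probe set of Os06g05010 went from under 6 to 8.86 in RNAi leaves and to 6.05 in WT. The lipid transfer family proteins LTPL154, LTPL147 and LTPL143, secreted proteins that bind lipids, reached 12.37, 11.42 and 10.62 in RNAi leaves, and 10.38, 8.82 and 8.66 in WT. DEF7, a defensin-like protein, went from under 6 to 10.17 and to 7.62 in WT. A jacalin-like lectin, Os12g14440, stood at 9.70 at 0 h and 13.02 at 2 h in RNAi leaves, above its WT levels of 6.78 and 8.16 on both arrays. Among bright genes, the thioredoxin family gene Os02g56900 went from 10.32 to 14.86 and a glycosyl transferase 8 gene, Os03g20120, from 10.60 to 14.63. HVA22 (Os11g30500) went from 8.40 to 12.28, LTI6A from 11.89 to 14.65 and LTI6B from 11.23 to 13.77.

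Chaperone genes changed by different amounts in the genotypes. Small heat shock proteins hold unfolding proteins in a soluble state, and 12 of 19 were higher and 1 lower in RNAi leaves (median change 1.96), against 3 higher and 1 lower in WT (median 0.00). With arrays scaled to the controls 11 were higher and 2 lower in RNAi leaves. HSP17.4 went from 6.68 to 13.81 in RNAi leaves, which is 139.7-fold, and from 7.65 to 10.97 in WT. HSP18.1 went from 7.84 to 12.30 and in WT from 7.32 to 7.83. HSP16.9A went from 6.69 to 10.36 and in WT from the floor to 6.50. In each of these the arrays at 0 h lay within 2-fold of each other, and the RNAi array at 2 h was the high one. HSP23.2 and HSP18.6 reached 9.65 and 9.28 in RNAi leaves from the floor and from 6.29, and were at the floor and at 6.07 in WT at 2 h. The HSP18.6 value is the mean of 3 probe sets that disagreed, with changes in RNAi leaves spread over 4.74. HSP26.7 was different at 0 h already. It stood at 9.33 and 12.53 in RNAi leaves and at the floor on both WT arrays. HSP24.1 changed alike, from 7.07 to 11.20 in RNAi leaves and from 6.34 to 10.24 in WT. The only small heat shock gene called lower, HSP18.8, was also the brightest at 0 h, and it fell from 14.48 to 12.37 in RNAi leaves and from 14.16 to 11.90 in WT. The group of HSP17.4, HSP18.1 and HSP17.7 are neighbours on the chromosome, as are HSP16.9A and HSP16.9B, and such near-identical genes can share probes.

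Large chaperones, which refold proteins with the use of ATP, had 4 of 8 members higher and 0 lower in RNAi leaves (median 0.93), against 1 higher and 0 lower in WT (median 0.10). CLPB1, the cytosolic HSP101 that pulls proteins out of aggregates, went from the floor to 9.28 and stayed at the floor in WT. CLPB-M, a related protein of organelles, went from 6.21 to 9.44 and in WT from the floor to 6.40. The HSP90 gene HSP81-1 changed alike in both, from 9.82 to 11.71 in RNAi leaves and from 9.82 to 11.95 in WT. The ER chaperone gene BIP1 went from 11.94 to 12.95 in RNAi leaves, just over 2-fold, and was at 12.76 and 12.96 in WT. HSP81-2 was bright and flat, at 14.31 and 14.43. Of the DnaJ co-chaperones, which were not in a group, ERDJ3A went from 7.19 to 11.40 and ERDJ3B from 8.93 to 10.49.

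Heat stress factors bind the promoters of heat shock genes, and 7 of 20 were higher and 0 lower in RNAi leaves. The WT count was 7 as well. HSFA2A and HSFA6B were called in RNAi leaves alone, and as many other factors in WT alone. The largest change in RNAi leaves was that of HSFB2A, 4.44, beside 4.62 in WT. HSFA2A went from the floor to 9.38 in RNAi leaves and to 6.33 in WT, as the mean of 3 probe sets. The changes of these probe sets in RNAi leaves were spread over 2.67. HSFA6B went from the floor to 8.41 in RNAi leaves and to 6.71 in WT. HSFA3 and HSFB2C had nearly equal changes in both genotypes, 3.13 and 2.67 in RNAi leaves and 3.24 and 3.07 in WT, while HSFB1 changed by 1.52 and 2.54. HSFA1 was at 11.21 and 10.68. With 1 array per condition, none of these differences between the genotypes could be tested.

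**Figure D3:**
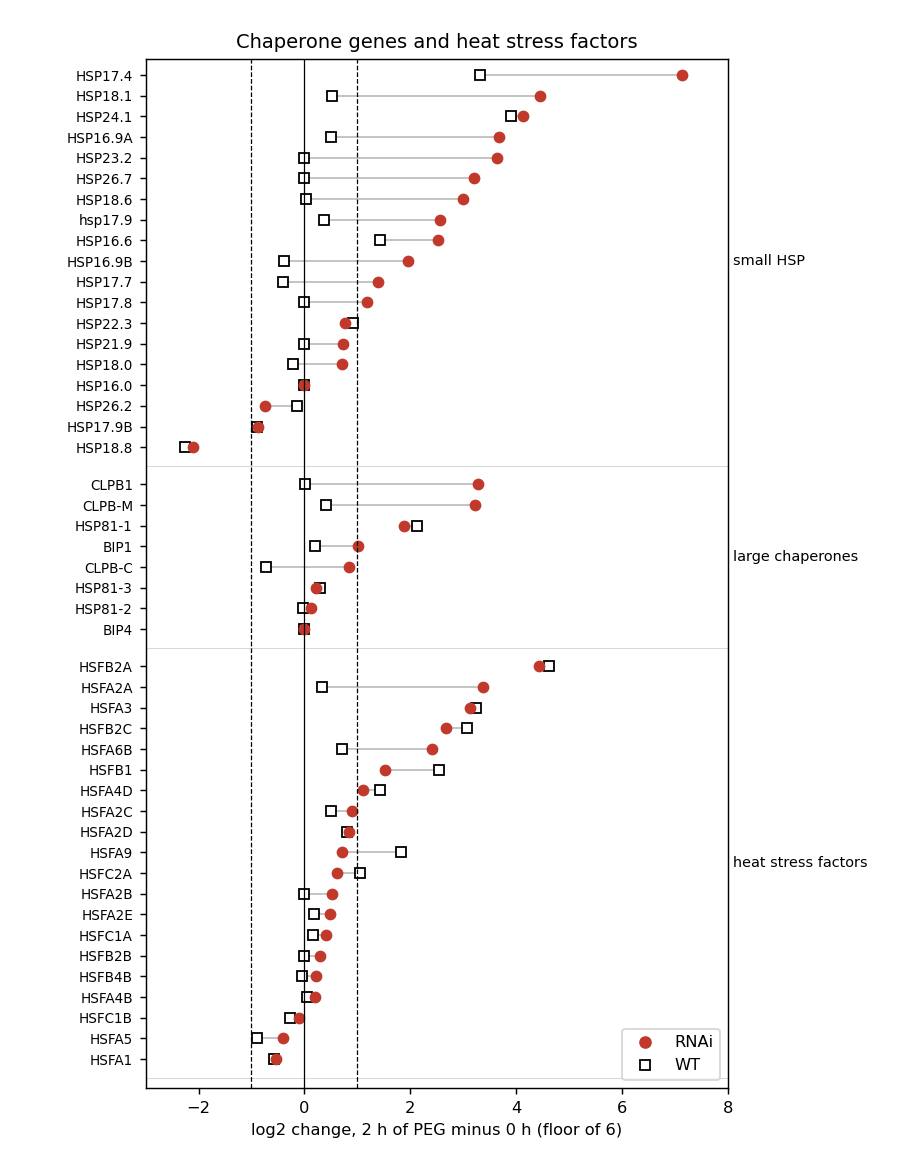
Change on the log2 scale from 0 h to 2 h of PEG for each small heat shock protein, large chaperone and heat stress factor gene, with RNAi leaves as red circles, WT leaves as open squares and dashed lines at 2-fold. The RNAi point lies far to the right of the WT point for HSP17.4 (7.13 and 3.32), HSP18.1 (4.46 and 0.51) and HSFA2A (3.38 and 0.33), and the points lie together for HSP24.1, HSP81-1 and HSFA3.

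Transcription factor families divided. Of 47 homeobox factors 8 were higher and 6 lower, or 7 and 9 with arrays scaled to the controls. Apart from HOX24, HOX2 went from 6.30 to 9.28, Hox22 from 11.02 to 13.79 and HOX15 from 11.56 to 14.24. HOX4 had the largest fall of any named gene, from 10.82 to 6.99, and HOX6 fell from 8.83 to 7.23. ROC1 and Roc2, homeobox factors of the epidermis, fell from 11.67 to 10.25 and from 11.47 to 10.12. HOS66, a KNOX-type homeobox gene, was at 9.23 and 11.44 in RNAi leaves and at 6.13 and 9.96 in WT. Of 8 DREB and CBF factors, which bind the dehydration response element, 3 were higher and 1 lower, or 1 and 1 with arrays scaled to the controls. DREB1G went from 8.16 to 10.26 and DREB2A from 7.51 to 8.76. The gene annotated as DREB1A (CBF3) fell from 11.55 to 9.62, and went from 9.96 to 9.15 in WT. A different locus, Os06g03670, which the study calls DREB1A and describes as a dehydration-responsive element-binding protein, was not in the group and had 1 of the 10 largest rises among named or described genes. One probe set of it went from 7.61 to 14.27 in RNAi leaves and from 7.98 to 13.74 in WT, and another from 6.68 to 13.12 and from 6.12 to 12.76.

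Of 8 named NAC factors 2 were higher and 0 lower, or 1 and 0 with arrays scaled to the controls. NAC071 (OsNAC5) went from 9.21 to 11.87 and NAC067 (OsNAC3) from 10.71 to 11.71, the latter barely over 2-fold and at 1.84 in WT. Of 6 WRKY factors 2 were higher and 0 lower, or 2 and 1 with arrays scaled to the controls. WRKY24, a repressor of gibberellin and ABA signalling in rice, went from 8.98 to 12.15, and WRKY71 from 9.36 to 10.94. Of 10 MYB factors 2 were higher and 1 lower, or 1 and 4 with arrays scaled to the controls. MYB4 went from 8.05 to 10.11. Of 14 basic helix-loop-helix factors 3 were higher and 1 lower. BHLH148, which acts with JAZ repressors in drought responses of rice, went from 10.28 to 12.79, and IRO3 (BHLH063), a regulator of iron responses, from 7.24 to 9.71. Of 54 CCCH and DOF zinc finger proteins 6 were higher and 3 lower, or 4 and 9 with arrays scaled to the controls. OsC3H35 went from 7.59 to 11.24 in RNAi leaves and from 7.44 to 9.14 in WT. Of 13 stress-associated proteins with A20 and AN1 zinc fingers, 2 were higher and 0 lower, SAP17 from 7.55 to 10.39 and SAP11 from 9.20 to 10.68. Outside these groups SPL2, a squamosa promoter binding factor, went from 9.16 to 12.69, and the GRAS factor CIGR1 from 10.82 to 12.82.

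Of 20 jasmonate synthesis genes 4 were higher and 0 lower (median 0.42), against 7 higher in WT. With arrays scaled to the controls 2 of the 20 were higher in RNAi leaves. OPR1, an oxophytodienoate reductase, went from 9.85 to 13.19. AOC3, the allene oxide cyclase, went from 11.80 to 13.55 and AOS1, the allene oxide synthase, from 9.65 to 10.89. Of 17 JAZ and TIFY proteins 7 were higher and 1 lower, or 7 and 2 with arrays scaled to the controls. The JAZ members are repressors that jasmonate removes, and all 7 genes called higher were JAZ genes. The gene called lower was GATA20 (TIFY2B), which has no JAZ name in the annotation, from 9.79 to 8.28. JAZ13 went from 11.02 to 14.55 and JAZ5 from 8.62 to 11.37. JAZ12 went from 13.15 to 14.68 in RNAi leaves and from 11.66 to 14.49 in WT, so the RNAi array was the higher one at 0 h and the levels at 2 h were close. JAZ9, JAZ11 and JAZ10 lie next to each other and changed by 1.94, 1.45 and 2.04, and by 3.69, 2.40 and 2.99 in WT. For these 3 genes as for JAZ12, the smaller change in RNAi leaves went with a higher level at 0 h. The receptor gene COI1A fell, from 11.11 to 10.06.

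Ethylene genes moved in both directions along the pathway, with 3 of 13 higher and 3 lower. The genes called higher were ACS2, ACO1 and ERS2. ACS2, which makes the precursor ACC, went from 7.60 to 11.21, and ACO1, which turns ACC into ethylene, from 9.50 to 12.37. Among receptors, which hold the pathway off until ethylene binds, ERS2 went from 8.40 to 9.66 and ETR3 from 11.31 to 9.35. Of the downstream signalling genes, EIN2 fell from 10.27 to 8.90 in RNAi leaves and from 10.28 to 8.84 in WT, and the factor EIL1B fell from 11.01 to 9.50 and from 8.77 to 8.20. At 0 h EIL1B was thus over 4-fold higher in RNAi than in WT leaves.

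Of 12 gibberellin genes 1 was higher and 1 lower, or 3 and 1 with arrays scaled to bright probe sets. GA20OX3, a late enzyme of gibberellin synthesis, went from 9.19 to 12.20, and KAO, an earlier enzyme, fell from 11.79 to 10.57. Of 32 cytokinin genes 6 were higher and 1 lower in RNAi leaves, against 4 and 4 in WT, and with arrays scaled to the controls 6 and 2. The cytokinin oxidases CKX4 and CKX5, which degrade the hormone, went from 9.34 to 11.23 and from 8.01 to 9.89, and LOGL7, which activates it, from 9.37 to 11.41. Their WT changes were close to these (2.01, 1.91 and 2.50). The response regulators, early targets of cytokinin, differed more. RR6 went from 10.45 to 12.85 in RNAi leaves and from 11.46 to 12.32 in WT, and RR1 from 6.96 to 9.19 and from 7.74 to 8.28. RR4 went up from 9.03 to 10.57 in RNAi leaves and down from 10.71 to 9.96 in WT. For RR1, RR4 and RR6 alike, RNAi leaves were the lower at 0 h and the higher at 2 h. Of 11 brassinosteroid genes 1 was higher and 0 lower, or 0 and 1 with arrays scaled to the controls, and that gene, the oxidase CYP85A1, went from 8.54 to 9.62. Of 26 Aux/IAA repressors 5 were higher and 4 lower, or 8 and 3 with arrays scaled to bright probe sets. IAA12 went from the floor to 8.49, IAA13 from 9.87 to 12.25 and IAA2 from 10.88 to 12.97, while IAA10 fell from 12.02 to 10.36 and IAA25 from 10.31 to 8.69. Of 33 other auxin genes 26 stayed within 2-fold, 1 was higher and 6 lower in RNAi leaves (median change -0.21), and 1 was higher and 5 lower in WT. The auxin response factors ARF9, ARF22 and ARF24 fell by 1.76, 1.51 and 1.33. The carrier PIN5A fell from 11.40 to 9.39 and SAUR39, a negative regulator of auxin synthesis and transport in rice, from 11.16 to 9.36. The only member called higher was GH3-8, an enzyme that conjugates auxin to amino acids, from 7.59 to 8.97.

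**Figure D4:**
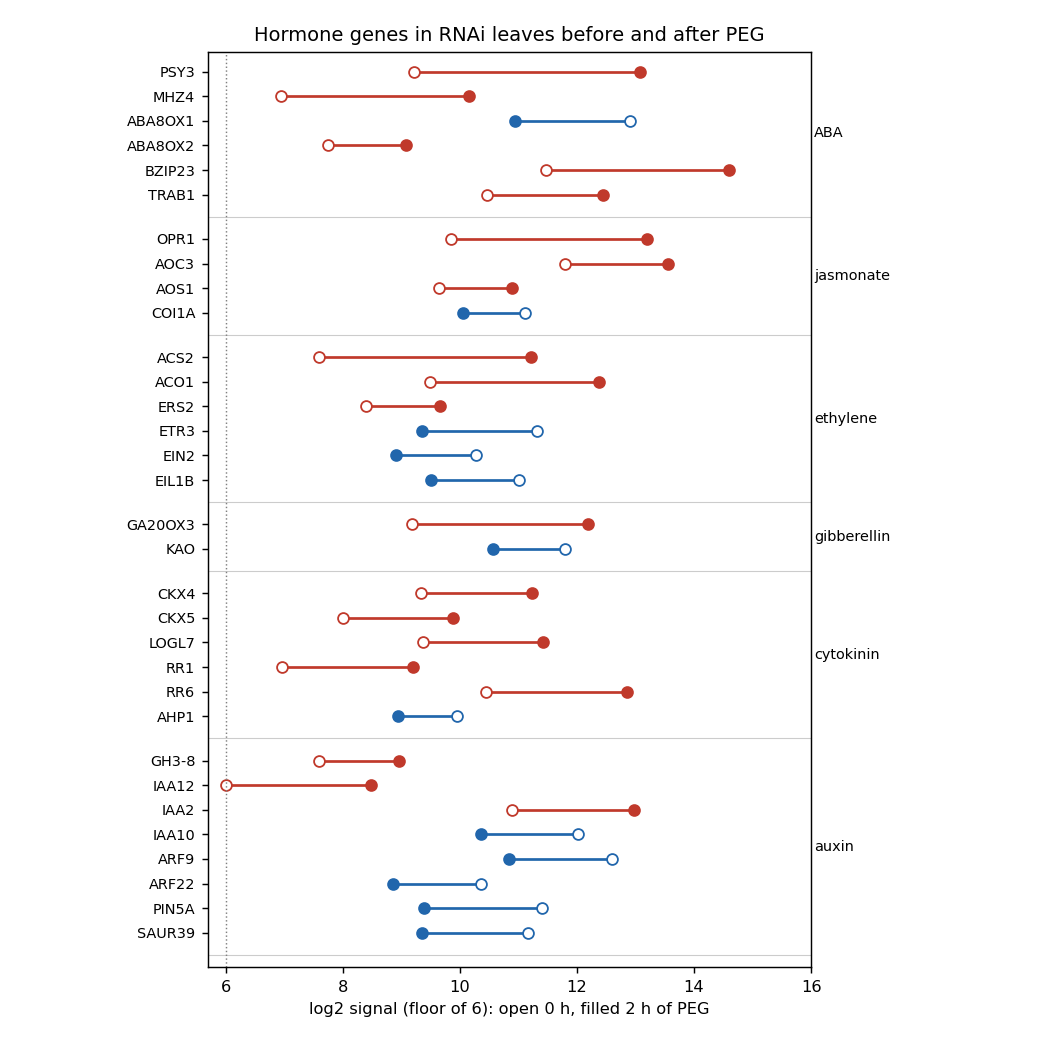
Log2 signal in RNAi leaves at 0 h (open circles) and at 2 h of PEG (filled circles) for genes of 6 hormones, red where the gene rose and blue where it fell, with the floor of 6 as a dotted line. PSY3, OPR1, ACS2, ERS2, RR6 and GA20OX3 move to the right, and COI1A, EIN2, KAO and ARF9 move to the left; the genes shown are examples, chosen after their values were seen.

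Calcium carries stress signals inside the cell. Of 33 calcium sensors 9 were higher and 4 lower. Apart from CML31, CML15 went from 8.46 to 12.01 and CML5 from 7.03 to 9.39. The calcineurin B-like sensor CBL10 went from 9.33 to 11.95, whereas CBL9 fell from 8.73 to 7.18 and CBL2 from 10.82 to 9.75. Of 24 CBL-interacting kinases 5 were higher and 1 lower, or 5 and 3 with arrays scaled to the controls. CIPK6 had the largest change, from the floor to 11.04, followed by CIPK29 from 8.33 to 10.75. CIPK10 fell from 9.06 to 7.64 as the mean of 4 probe sets, whose changes in RNAi leaves were spread over 2.19. Of 21 calcium-dependent kinases 1 was higher and 1 lower, or 0 and 3 with arrays scaled to the controls, and CPK18 was the one that fell, from 9.06 to 7.69. Of 16 genes of the MAP kinase cascade 4 were higher and 1 lower, or 2 and 3 with arrays scaled to the controls, and MPK7 had the largest change, from 11.50 to 13.06.

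Of 25 aquaporins 7 were higher and 3 lower. The rises included channels of the vacuole and of the plasma membrane. TIP1-2 went from 9.80 to 13.73, and PIP2-4 from the floor to 8.51 in RNAi leaves and 9.64 in WT. TIP3-1 and TIP3-2, vacuolar channels known from seeds, went from the floor to 8.28 and 7.47. The aquaporins that fell were all of the NIP class. Lsi6, a silicon channel like the root marker Lsi1, fell from 11.87 to 10.65, and Lsi1 fell as given above. NIP1-1 fell from 7.91 to 6.73 in RNAi leaves and was at 6.11 and 6.83 in WT. Of 26 potassium and sodium transport genes 4 were higher and 2 lower, or 3 and 4 with arrays scaled to the controls. TPKB, a potassium channel of storage vacuoles, went from the floor to 9.60, and HAK27 from 11.04 to 13.32. HAK2 fell from 10.36 to 8.80. Of 58 genes of metal transport and handling 5 were higher and 7 lower, or 5 and 4 with arrays scaled to bright probe sets and 3 and 13 when scaled to the controls. NAAT1, which acts in the synthesis of the iron chelator of grasses, fell from 10.59 to 8.79, and IRT1, one of the root markers above, reached the floor. The magnesium transporter gene MRS2-A, outside that group, fell from 13.71 to 12.66.

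Of 20 genes of nitrogen uptake and assimilation 0 were higher and 2 lower, or 0 and 1 with arrays scaled to bright probe sets. These were the ammonium transporter gene AMT1, from 10.40 to 9.09, and GLN1-2, a cytosolic glutamine synthetase, from 12.55 to 11.44. Of 21 phosphate genes 2 were higher and 2 lower, or 2 and 4 with arrays scaled to the controls. PHR3, a factor of the phosphate starvation response, went from 8.66 to 10.72 and PHO1-3, a phosphate exporter, fell from 9.11 to 7.07.

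Of 18 sugar transporters 3 were higher and 4 lower, and the split ran through the SWEET family, which lets sugars leave cells. SWEET15 went from the floor to 9.37 in RNAi leaves and to 8.24 in WT. SWEET11 went from the floor to 9.26 and stayed at the floor in WT. SWEET1B fell from 11.77 to 9.75, SWEET14 from 8.97 to 7.47 and SWEET2B from 12.50 to 11.12. Thus the SWEET genes that rose were near the floor at 0 h, and those that fell were measured well above it. A gene near the floor at 0 h could not be called lower, so the starting level of the falls was partly set by the floor. Of 31 sucrose and starch enzymes 4 were higher and 1 lower, or 3 and 4 with arrays scaled to the controls. AMY3D, an alpha-amylase, went from 6.68 to 8.81, NIN1 and CIN1, invertases that split sucrose, from 10.92 to 12.41 and from 11.15 to 12.44, and SUS4, a sucrose synthase, from 10.83 to 12.31. Of 8 trehalose enzymes 2 were higher and 0 lower, with TPP2 going from 8.18 to 11.98 beside TPP9. Of 9 genes of proline and osmolyte synthesis 1 was higher and 0 lower, or 2 and 0 with arrays scaled to bright probe sets. P5CS1, which makes proline, was at 12.22 and 13.08, within 2-fold, and INO1, which makes inositol phosphate, was the one called higher, from 12.99 to 14.33. The raffinose synthase RFS was among the 10 brightest named genes at 2 h, at 14.99 from 12.35, and UGE-1, which interconverts UDP-glucose and UDP-galactose, went from 11.09 to 14.53.

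Of the cell wall groups, the expansins were called higher in 10.3% of members and lower in 20.7%, against 12.1% and 7.33% over all named genes. The shares were nearer to those of all named genes for cellulose synthases and CSL genes, 10.3% higher and 10.3% lower. For endoglucanases, laccases and xyloglucan endotransglucosylases they were 9.52% and 0%. Of 29 expansins, which loosen walls in growing cells, 3 were higher and 6 lower, against 1 and 3 in WT. EXPB4 fell from 10.34 to 7.31, EXPA2 from 9.92 to 7.47 and EXPB3 from 12.40 to 10.04. EXPB6, EXPB2, EXPB3 and EXPB4 are neighbours on the chromosome and changed by -1.07, -1.03, -2.36 and -3.03 in that order. EXLA2 went up, from 9.74 to 12.35. Of 29 cellulose synthases and related CSL genes 3 were higher and 3 lower, or 5 and 0 with arrays scaled to bright probe sets and 2 and 5 when scaled to the controls. CESA7, a cellulose synthase of secondary walls, went from 8.15 to 9.80 and CSLC9 from 6.22 to 8.81. Of 21 endoglucanases, laccases and xyloglucan endotransglucosylases 2 were higher and 0 lower, and the larger change was that of XTH8, from 12.60 to 13.81. With arrays scaled to the controls 0 of the 21 were called.

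Of 75 cell division genes 1 was higher (1.33%) and 5 lower (6.67%), against 12.1% and 7.33% over all named genes. Only 55 of the 75 reached 6 on 1 or both RNAi arrays, and the rest could not be called. With arrays scaled to the controls 0 were higher and 19 lower. The D-type cyclins CYCD5-1 and CYCD3-1, which start the cycle, fell from 7.96 to the floor and from 7.88 to 6.66, and the kinase CDKF-1 fell from 12.52 to 11.30. The member called higher, the cycle inhibitor gene KRP5, barely passed 2-fold, from 6.24 to 7.25. Outside the group, EL2 went from 9.50 to 12.06 and SMR1, of the same family of cycle inhibitors, from 9.23 to 11.98. Of the kinesin motor proteins, also outside the group, KIN14O went from 7.32 to 10.17, KIN13B from 9.49 to 11.91 and KIN14A from 7.71 to 9.74. Of 24 ribosomal proteins 1 was higher and 0 lower, RPL18 at 12.75 and 13.81 in RNAi leaves and 13.63 and 13.20 in WT, and with arrays scaled to the controls 0 were higher.

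Photosynthesis genes stayed within 2-fold, with 0 of 19 higher and 0 lower and a median change of -0.11, or 1 lower with arrays scaled to the controls. Of 14 chlorophyll and carotenoid enzymes 3 were higher and 1 lower. These were PSY3, given above, and the following 3 genes. SGR and NYC1, which start chlorophyll breakdown, went from 8.90 to 12.09 and from 11.70 to 13.41, and PORB, which makes chlorophyllide, fell from 12.87 to 11.56. GLK1 and GLK2, factors that turn on chloroplast genes, fell from 12.97 to 11.67 and from 11.29 to 9.94. The other 10 enzymes stayed within 2-fold, and the light-harvesting gene CAB2R stood at 15.48 and 15.38. Of 12 flowering time genes 0 were higher and 2 lower, and these were the phytochrome genes PhyB, from 12.47 to 11.02, and phyC, from 11.42 to 10.32. In this group 1 was lower with arrays scaled to bright probe sets, 3 when scaled to the controls and 0 without the cross-hybridizing probe sets. Of 6 clock genes 0 were called, with GI at 12.25 and 13.01 and CCA1 at 10.48 and 10.24. The locus Os05g41490, described as the circadian clock coupling factor ZGT, went from under 6 to 11.32. PCL1, a clock gene that was not in the group, went from 7.70 to 9.42.

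Antioxidant enzymes and thioredoxins were nearly flat. Of 32 genes 1 was higher and 0 lower, APX2, a cytosolic ascorbate peroxidase, from 9.12 to 10.71. The APX2 value is the mean of 4 probe sets that disagreed, with changes in RNAi leaves spread over 2.62. With arrays scaled to the controls 1 of the 32 was higher and 1 lower. The catalase gene CAT-A was at 13.57 and 12.82, and CAT-B at 9.78 and 10.19. Of 15 pathogenesis-related proteins and chitinases 1 was higher and 0 lower, or 0 and 2 with arrays scaled to the controls. Of 16 phenylpropanoid and lignin genes 2 were higher and 0 lower, or 1 and 1 with arrays scaled to the controls, with 4CL5 going from 9.08 to 11.03. Of 19 diterpenoid genes 0 were higher and 2 lower, or 1 and 1 with arrays scaled to bright probe sets. CYP76M7 fell from 8.16 to the floor in RNAi leaves and from 9.01 to 8.06 in WT. Of 7 seed storage proteins 4 reached 6 on 1 or both RNAi arrays, and 0 changed over 2-fold. Outside the groups, CEBIP, the chitin receptor of rice, fell from 13.83 to 11.69. Among germin-like genes GLP2 fell from 10.04 to 7.94, and GER4 and GER2 rose, from 6.05 to 10.93 and from 6.07 to 9.63. Adh2, an alcohol dehydrogenase, fell from 9.61 to 6.83 in RNAi leaves and from 7.83 to 6.06 in WT.

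**Figure D5:**
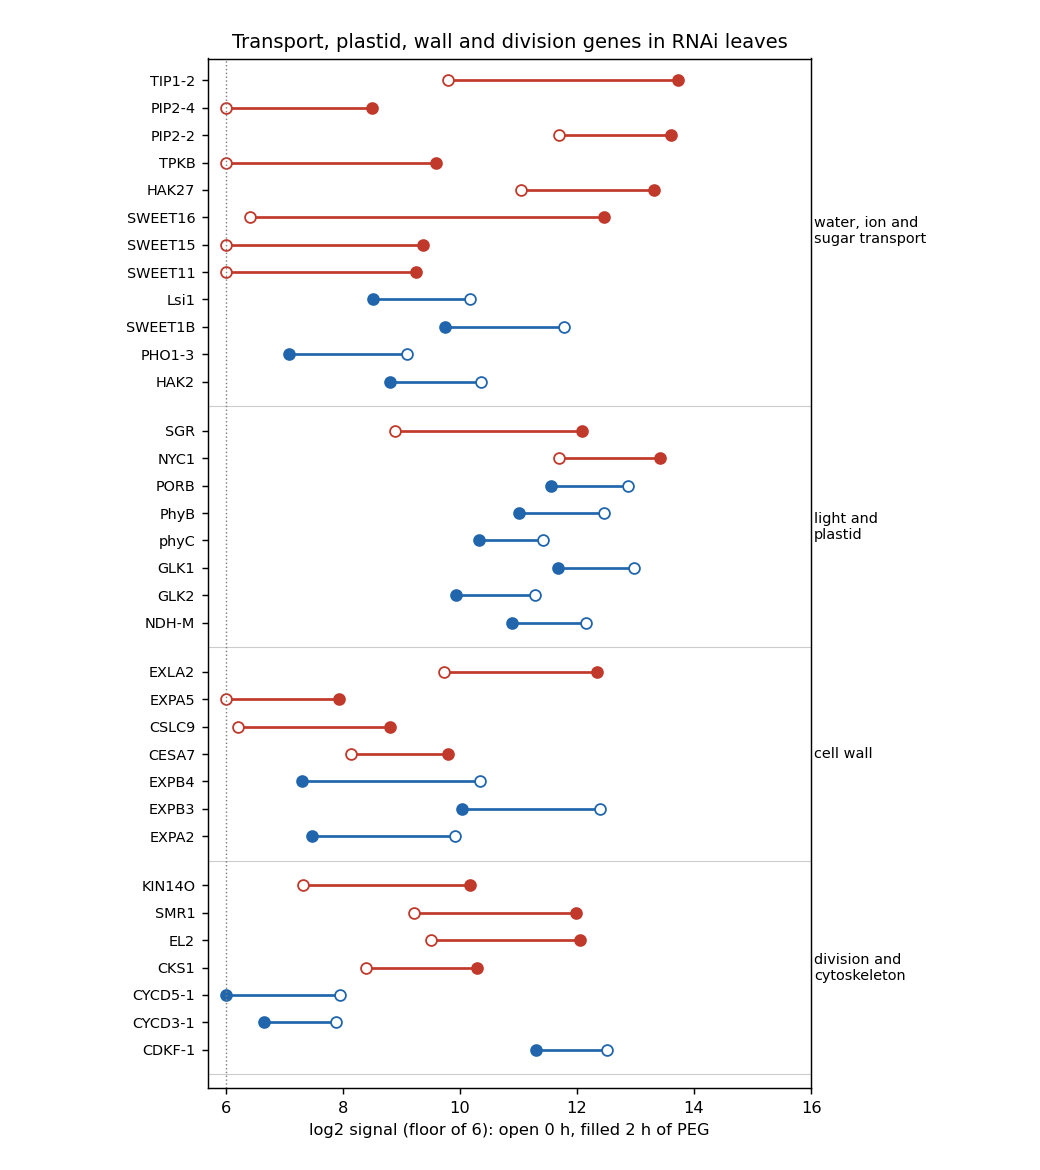
Log2 signal in RNAi leaves at 0 h (open circles) and at 2 h of PEG (filled circles) for genes of transport, of light response and plastids, of the cell wall and of cell division, red where the gene rose and blue where it fell, with the floor of 6 as a dotted line. SWEET16 and TIP1-2 reach 12.46 and 13.73, and EXPB4 and CYCD5-1 drop to 7.31 and to the floor.

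Set beside WT, the 2899 probe sets that were higher in RNAi leaves had a median change of 1.62 in both genotypes, and 2135 of them were also over 2-fold higher in WT, 756 within 2-fold and 8 over 2-fold lower. The 3250 that were lower had a median change of -1.30 in RNAi leaves and -1.13 in WT, and 1911 of them were over 2-fold lower in WT, 1335 within 2-fold and 4 over 2-fold higher. Both sets were chosen by passing 2-fold in RNAi leaves, a choice that by itself favours larger changes there than in WT. These medians and counts therefore do not measure a difference between the genotypes. By gene, 1673 were higher and 1664 lower in RNAi leaves, and 112 of these changed under 1.1-fold in WT. The reverse count, of genes called in WT and flat in RNAi leaves, was not made. Of the 478 named genes called in RNAi leaves, 21 changed under 1.1-fold in WT, 15 higher and 6 lower. The chaperones among them were HSP23.2, CLPB1, HSP26.7, HSP18.6 and HSP17.8. The others included EXPA5 (the floor to 7.93), the pectin methylesterase inhibitor gene PMEI8 (the floor to 7.77) and the plastid protease gene FTSH6 (the floor to 7.73). CCD7, an enzyme of strigolactone synthesis, went from 6.35 to 7.59 and was at 6.71 and 6.76 in WT. HXK4, a hexokinase gene, fell from 8.87 to 7.71 in RNAi leaves and was at 7.42 and 7.33 in WT. Several of these genes lay near the floor on 3 of the 4 arrays, and a signal under the floor hides any change there.

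Some genes called in the same direction lay next to each other. Of the measured genes placed in order along the chromosomes, 39 runs of 3 or more neighbours held only genes called higher (131 genes). Another 21 runs held only genes called lower (71 genes), with at most 5 genes in a run. Over all genes 9.34% were called higher and 9.29% lower, and the number of runs that random order would give was not computed. Neighbours here and above are neighbours among measured genes, so unmeasured genes can lie between them. Besides the RAB16, heat shock, JAZ and expansin neighbours given above, one run held CIPK32 and CML3, changed by 1.66 and 1.76. Neighbours of 1 family can share probe sequence, and the part of this in the runs was not tested.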

How the data were processed

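Leaf RNA of 4 samples was hybridised by the authors to the Affymetrix Rice Genome Array, 1 array per condition. The deposited values were log2 signals that the authors made with GCOS (MAS5 in the submitters' processing notes, version not given in the sources used here); the scaling target was not stated either. Of 57381 rows, 123 control probe sets were left out of the counts, and signals under 6 were raised to 6. A change was RNAi at 2 h minus RNAi at 0 h. The threshold was 2-fold. With 1 array per condition no test was possible, and precision is limited by their number. Probe sets were named through the platform annotation and RefSeq symbols (assembly ASM3414082v1, used for names and gene order only): 22436 had 1 gene, 95 several and 34727 none. From 677 probe sets the study's own descriptions were used for names. These came from its lists of genes changed in both genotypes and of genes that rose more in RNAi-9 than in WT. For a gene with several probe sets the mean change was taken. Genes to be named were the qRT-PCR loci of the study (9 loci, which rose by 2.46 to 7.51 here), the 30 largest rises and falls, the largest changes of each of 51 groups, the 10 brightest at 2 h and the largest changes that were under 1.1-fold in WT. Genes named outside the groups (MHZ4, MODD, LTI6A, LTI6B, the DnaJ genes, SPL2, CIGR1, COI1A, MRS2-A, UGE-1, EL2, SMR1, the kinesins, GLK1, GLK2, PCL1 and GER2) and the described loci beyond the largest rises were chosen after their values were seen. Members and groups were chosen with earlier results of these data known, and wrong symbol matches were removed after values were seen, with TPP2 returned to the trehalose group in the same way. Calculations used Python 3.11.15 with pandas 2.3.3 and numpy 2.4.6, and counting was tested on simulated data. Promoter motifs were not searched, for want of promoter sequences. Floors, scalings, thresholds and probe set choices were varied.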

Additional observations from a re-analysis of the deposited data

Results flagged for a closer look

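A reporter probe set, outside the rice genes, read 14.81 on the RNAi 0 h array and 14.85 on the RNAi 2 h array, against 0.79 and 3.05 on the WT arrays at 0 h and 2 h. The highest value of any other of the 64 reporter probe sets was 7.02. Which transgene sequence the probe set matches was not given in the sources used here.

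Over the named genes, 4 moved by over 1.5-fold in opposite directions in the genotypes and by over 2-fold in RNAi leaves. RR4 changed by 1.545 in RNAi leaves and by -0.75 in WT. BURP2 changed by 1.499, from 7.21 to 8.70, and in WT went from 8.30 to 7.51. BURP17 changed by -1.341, from 10.22 to 8.88, and in WT went from 10.13 to 10.72. NIP1-1 changed by -1.18 and in WT by 0.72. With 1 array per condition, the difference between the genotypes was not tested for any of the 4 genes.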

How the results depend on the processing

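Counts of probe sets over 2-fold higher and lower moved most with the floor and the threshold. Without a floor 11815 were higher and 12147 lower, and with a floor of 8 there were 1858 and 1774. At thresholds of 1.5-fold, 3-fold and 4-fold the counts were 4925 and 7488, 1508 and 829, and 946 and 310. Scaling to the hybridization controls gave 2038 and 5887, and counting by gene gave 1673 and 1664. Before the floor, the control scaling shifts changes by -0.31 in RNAi leaves and by 0.26 in WT, in opposite directions. The bright-median scaling shifts them by 0.14 and 0.11. Differences between the genotypes therefore also depend on the control scaling, and the WT counts given beside the RNAi counts were not rescaled. Floors of 5 and 7, an offset of 32, median and quantile scalings, and the omission of cross-hybridizing probe sets kept both counts within 1.5 times. Of the 478 named genes called, 351 stayed over 2-fold with a floor of 8, 407 with control scaling and 478 without a floor, all in the same direction. A floor can only shrink the change of a probe set and cannot turn its sign. For genes with 1 probe set, the kept direction under any floor and the count without a floor were therefore fixed in advance. With the brightest probe set in place of the mean, SAT1 (-0.007454) and RTUB-2 (-0.01806) turned sign. With the cross-hybridizing probe sets left out, the counts higher and lower were 10 and 1 for protein phosphatases 2C, 3 and 0 for SnRK2 kinases, 2 and 1 for ethylene genes, 5 and 4 for homeobox factors, 3 and 0 for potassium and sodium transport, 3 and 1 for cellulose synthases, 2 and 0 for chlorophyll and carotenoid enzymes and 0 and 1 for ABA synthesis and breakdown. No paired analysis was possible because each condition had 1 array, and no array could be left out. Signals under 6, at 52.6% of probe sets on both RNAi arrays, carried no measurable change.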
